A study of Aedes aegypti with 6 samples.

Results

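The larval pools of Aedes aegypti were 3 whole-body RNA libraries, chosen by the stage in their labels, out of 6 libraries in the series. They came from collection sites K1, K3 and C in Eastern India (locations 1, 2 and 3), with 1 pool of 10 larvae per site, and the other 3 libraries were pools of 10 adults from the same sites. No strain, treatment, larval age or sex was given in the sources used here, and nothing says how many water bodies a pool came from. With 1 pool per site there is no spread within a site. Values and folds are therefore given without a test, and a difference between sites cannot be told apart from a difference between pools.

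Larvae of this mosquito live in water, feed on suspended and settled matter, grow through successive moults and store protein and fat for the later pupa, which does not feed. A whole-body library holds RNA of gut, fat body, epidermis, muscle, nervous system and all other tissues at once. In such a library, fewer cells of a type and less RNA per cell cannot be told apart. Age within the larval stage, food and water conditions can each differ between natural breeding sites, and none of them was recorded in the sources used here.

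The gene rows summed to 13758058, 12049243 and 18328454 counts for K1, K3 and C larvae, or 25.6% to 30.7% of the reads in each gene table. Values are given in CPM, counts per 1000000 gene counts, so that 50 CPM stood for 688, 602 and 916 counts in that order. The pools differed in how their low counts were distributed. K3 larvae, with the fewest gene counts, had 7807 genes with at least 1 count and 2639 genes with 1 to 9 counts, whereas K1 larvae had 5117 and 231 and C larvae had 6230 and 355. The variance of the genes' forward-strand shares over its binomial value, taken over genes with 20 to 100 counts, was 25.4 in K1, 2.98 in K3 and 14.2 in C larvae, where independent reads would give about 1. Low counts in the K1 and C pools were therefore less precise than their size implies, and comparisons between sites were limited to genes with at least 50 CPM in 1 of the larval pools.

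The larval pools shared most of their abundant genes. Of 2678 genes with at least 10 CPM in any larval pool, 1477 reached it in all 3 pools, 482 in exactly 2 and 719 in exactly 1. Of the 719, 308 were at this level in K1 larvae alone, 84 in K3 larvae alone and 327 in C larvae alone, while 308 genes reached it in K1 and C larvae and not in K3. At 1000 CPM or more the overlap was larger, with 122 of 173 genes in all 3 pools, which is 70.5% against 55.2% at 10 CPM. The 100 genes with the highest larval mean held 72.3%, 77.6% and 74.9% of the gene counts of K1, K3 and C larvae, and 91 genes were among each pool's own top 100. K3 larvae put the largest share of their reads into these genes.

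A few genes took a large part of every larval library. The 10 genes with the highest mean held 15.1%, 14.1% and 15.6% of the gene counts in K1, K3 and C larvae, a mean of 14.9% ± 0.795 (SD, n = 3), and the exact 95% interval of each share ran from 15.11% to 15.14%, 14.05% to 14.09% and 15.62% to 15.65%, for counting error only. The same 10 genes, ranked by larval mean, held 10.4%, 10.9% and 12.6% in the adults of K1, K3 and C. Each adult pool's own top 10 held more, at 28.6%, 26.69% and 23.93%. Each larval pool's own top 10 held 15.67%, 15.27% and 15.65% in the same order. The files pair none of these identifiers with a gene name, so what they encode is not stated here. CPM is not corrected for gene length, so the order among genes is one of read share.

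AAEL021888 took the most counts on average, at 25333, 13956 and 25335 CPM in K1, K3 and C larvae (21541 ± 6569, SD, n = 3). It was at 46.9, 6.42 and 22.3 CPM in the adults, so every larval pool lay far above every adult pool. AAEL008045 had a like pattern, with 18458, 6008 and 15025 CPM in larvae and 47.6, 37.0 and 3.21 CPM in adults. It also varied most among the 10, with 3.07 times more in K1 than in K3 larvae, and both genes were lowest in K3 larvae. AAEL017096 was also lowest in K3, at 15068, 10146 and 16938 CPM in larvae and 4665, 5279 and 6592 CPM in adults.

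The other 7 of the 10 genes were within 1.5-fold over the larval pools. AAEL000987 was at 14977, 14833 and 16267 CPM in K1, K3 and C larvae and at 14440, 15241 and 16448 CPM in the adults. AAEL014583 was at 13452, 19805 and 16133 CPM in larvae and took the most counts in the K3 pool. AAEL004855 was at 12129, 17249 and 12882 CPM in larvae and 24212, 21894 and 22281 CPM in adults. AAEL014583 was at 13026, 17012 and 17916 CPM in the adults, and its larval and adult ranges overlapped, as did those of AAEL000987, whereas those of AAEL004855 did not. AAEL010168 was at 14610, 13322 and 15376 CPM in larvae and 9879, 12041 and 9991 CPM in adults, so every larval pool was above every adult pool. AAEL008481, AAEL024536 and AAEL013625 ranged from 12159 to 15824 CPM in the larval pools and from 10938 to 17890 CPM in the adult pools.

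**Figure D1:**
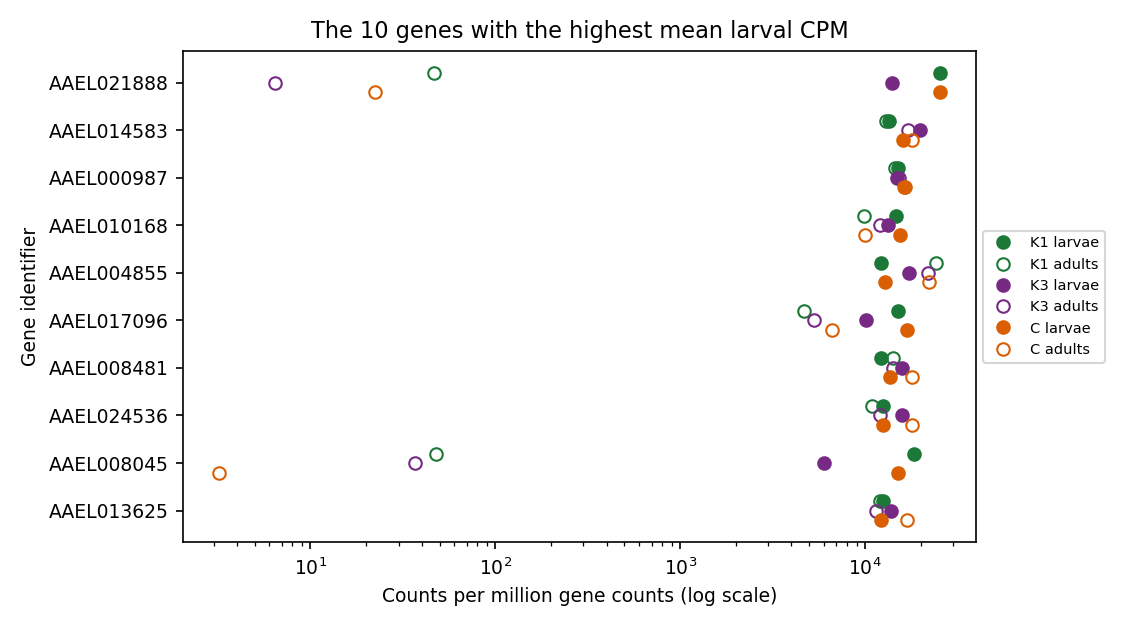
CPM over gene counts (horizontal, log scale) for the 10 genes with the highest larval mean, with filled points for the larval pools and open points for the adult pools of the same site. AAEL021888 and AAEL008045 are under 50 CPM in every adult pool and at 6008 CPM or more in every larval pool, while all values of the other 8 lie between 4665 and 24212 CPM.

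Spliced reads gave a second view that carries gene symbols. Each annotated intron was assigned to the gene of the RefSeq table (assembly AaegL5.0) that alone contains it, and the uniquely mapped reads across a gene's introns were summed and expressed as CPM of all such reads, which numbered 4657357, 4404965 and 6341139 in K1, K3 and C larvae. The adult pools had fewer such reads, 3695380, 1015348 and 1628859 in K1, K3 and C. The RefSeq table gives LOC symbols without descriptions, and the sum grows with a gene's number of introns. The 20 genes with the highest larval mean held 34.1%, 39.5% and 34.7% of these reads, and 18 of them were within 1.5-fold over the 3 larval pools. Of the top 100 genes, 79 were within 1.5-fold and 89 within 2-fold, with a median ratio of highest to lowest pool of 1.27.

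LOC5571927 on chromosome 3 took the most junction reads, with 29746, 32019 and 27234 CPM in K1, K3 and C larvae and 24423, 26359 and 36273 CPM in adults. LOC5564713 on chromosome 1 followed with 25471, 33415 and 28097 CPM in larvae, and LOC5578368 on chromosome 2 with 20686, 30902 and 22711 CPM. Their larval and adult ranges overlapped. Of the next 5 genes, LOC110677919 on chromosome 3, LOC5574485 on chromosome 2, LOC5570139 on chromosome 3 and LOC5574844 on chromosome 2 ranged from 17909 to 24624 CPM over the larval pools with ratios of highest to lowest of at most 1.17. The fifth, LOC23687618 on chromosome 1, was at 15646, 24188 and 21515 CPM, a ratio of 1.55. The genes ranked 10 to 20 lay between 11668 and 18468 CPM in the larval pools, with LOC110675493 on chromosome 2 the most variable at 12556, 18068 and 14772 CPM. LOC5565544 on chromosome 2 was higher in every adult pool (21069 to 22760 CPM) than in every larval pool (12420 to 15984 CPM). Per intron with larval reads, LOC5579954 on chromosome 1 was the highest of these 20 genes at 16914 CPM, from a single intron, against a mean of 14833 CPM over the 2 introns of LOC5571927. Its larval values were 22600, 18109 and 10032 CPM, and no adult pool had a junction read for it.

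Among the 100 genes with the most larval junction reads, 4 had no junction read in any adult pool. They were LOC5579954, LOC5579955 close to it, LOC5579510 on the same chromosome and LOC5567234 on chromosome 3. LOC5579955 was at 3474, 1730 and 2205 CPM in K1, K3 and C larvae, a ratio of highest to lowest pool of 2.01, and that of LOC5579954 was 2.25. LOC5579510 was at 5367, 125 and 485 CPM, the largest such ratio in the top 100 at 42.8. LOC5567234 was at 3754, 5833 and 265 CPM, a ratio of 22.0, so that K1 was the high pool for LOC5579510 and C the low pool for LOC5567234.

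At the other end, the steadiest of the top 100 genes hardly differed between the larval pools. LOC5564212 on chromosome 2 was at 16401, 16207 and 16165 CPM in K1, K3 and C larvae, a highest to lowest ratio of 1.02, and at 13750, 14275 and 11153 CPM in adults. LOC5575037 on chromosome 3 was at 9469, 9744 and 9788 CPM, and LOC5574993 on chromosome 1 at 13438, 13019 and 13601 CPM. For LOC5580030 on chromosome 1 and LOC5568090 on chromosome 2 the ratios were 1.06 and 1.06. LOC5564212 and LOC5575037 were higher in every larval pool than in every adult pool, while the adult values of LOC5574993 lay on both sides of the larval ones.

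Below this abundant core the pools diverged. Over the 1028 genes with at least 50 CPM in a larval pool, the highest pool exceeded the lowest by a median of 2.10-fold, 474 genes (46.1%) were within 2-fold and 190 (18.5%) differed by at least 4-fold. At 1000 CPM or more the median ratio was 1.44 for 173 genes, and between 100 and 1000 CPM it was 2.19 for 501 genes. The adult pools gave similar figures by the same rule, with a median of 2.26-fold over 812 genes and 21.1% at 4-fold or more. Across the 1028 genes, Pearson's r of log2(CPM + 1) was 0.870 between K1 and K3, 0.856 between K1 and C and 0.747 between K3 and C larvae. These correlations describe pairs of single libraries over genes chosen for a high value in at least 1 of them.

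The typical gene was lower in K3 larvae than in the other pools. The median log2 ratio over the 1028 genes was -0.47 for K3 against K1 and 0.37 for C against K3, but -0.03 for C against K1. Scaling with TMM factors (edgeR's trimmed mean of log ratios, 1.19, 0.722 and 1.17 for K1, K3 and C) moved these medians to 0.25, -0.32 and 0.00. Statements that K3 larvae were higher or lower thus depend on the scaling. Both counts are given for the genes called apart, and other statements on K3 larvae are by CPM unless TMM is named. At 4-fold or more, 111 genes (10.8%) differed between K1 and K3, 110 (10.7%) between K1 and C and 128 (12.5%) between K3 and C larvae. Of the 110 between K1 and C, 78 were higher in K1 and 32 higher in C, and TMM gave 77 and 32.

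**Figure D2:**
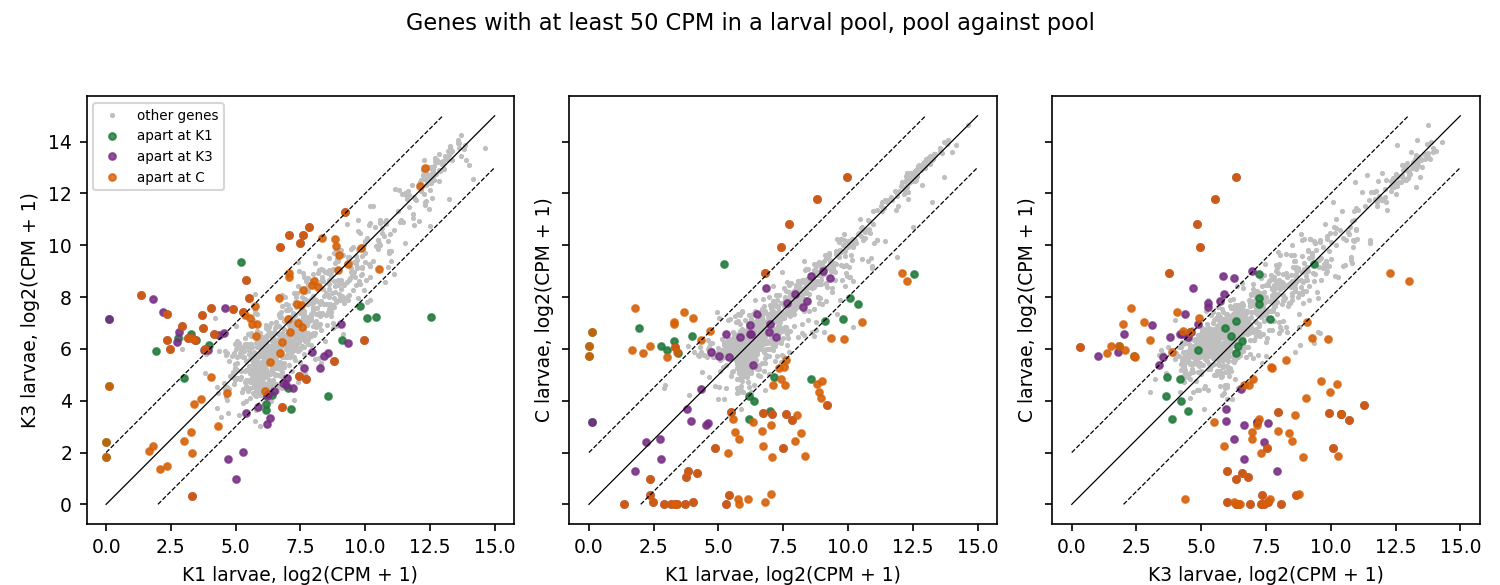
Each panel sets log2(CPM + 1) of one larval pool against another for the 1028 genes with at least 50 CPM in a larval pool. The solid line marks equal values and the dashed lines 4-fold differences, and coloured genes are at least 4-fold above or below both other pools at the named site, with C drawn over K3 and K3 over K1 where a gene is apart at more than 1. The panel of K1 against C shows genes near 0 in C larvae that are well above it in K1, among them AAEL004745 at 0.327 and 131 CPM.

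A gene was called apart at a site when that larval pool was at least 4-fold above, or below, each of the other 2 larval pools. In K1 larvae 11 genes (1.07% of 1028) were higher and 11 (1.07%) lower, and 6 and 13 with TMM factors. In K3 larvae 33 (3.21%) were higher and 27 (2.63%) lower, which became 56 and 9 with TMM factors. In C larvae 21 (2.04%) were higher and 56 (5.45%) lower, and 14 and 62 with TMM. The lower genes of C larvae were the largest class of the gene tables with either scaling, and their median fold was 17.4, against medians of 4.75 to 11.8 in the other 5 classes. The classes overlap. Most genes higher in K3 larvae were also lower in C larvae, such as AAEL004746 at 591, 2476 and 13.3 CPM in K1, K3 and C. Some genes lower in K3 larvae were also higher in C larvae. In all, the 159 calls fell on 126 genes (12.3%) that were apart at 1 or more sites. They were moderate in level, with a median of 88.5 to 375 CPM in their highest pool across the 6 classes, and 10 of the 56 genes lower in C larvae exceeded 1000 CPM elsewhere.

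The forward and reverse strand columns of the gene tables count the reads of the same pools by strand, and the folds were computed in each. Of the 159 calls, 124 passed 4-fold in both columns and 150 were at least 2-fold in the same direction in both. For the genes lower in C larvae 42 of 56 passed in both, and for those higher in K3 larvae 28 of 33. The calls were chosen on the column for both strands, which counts the same reads. Passing in both strand columns was therefore largely fixed in advance and is no added support. This compares reads within libraries and gives no spread between pools.

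**Figure D3:**
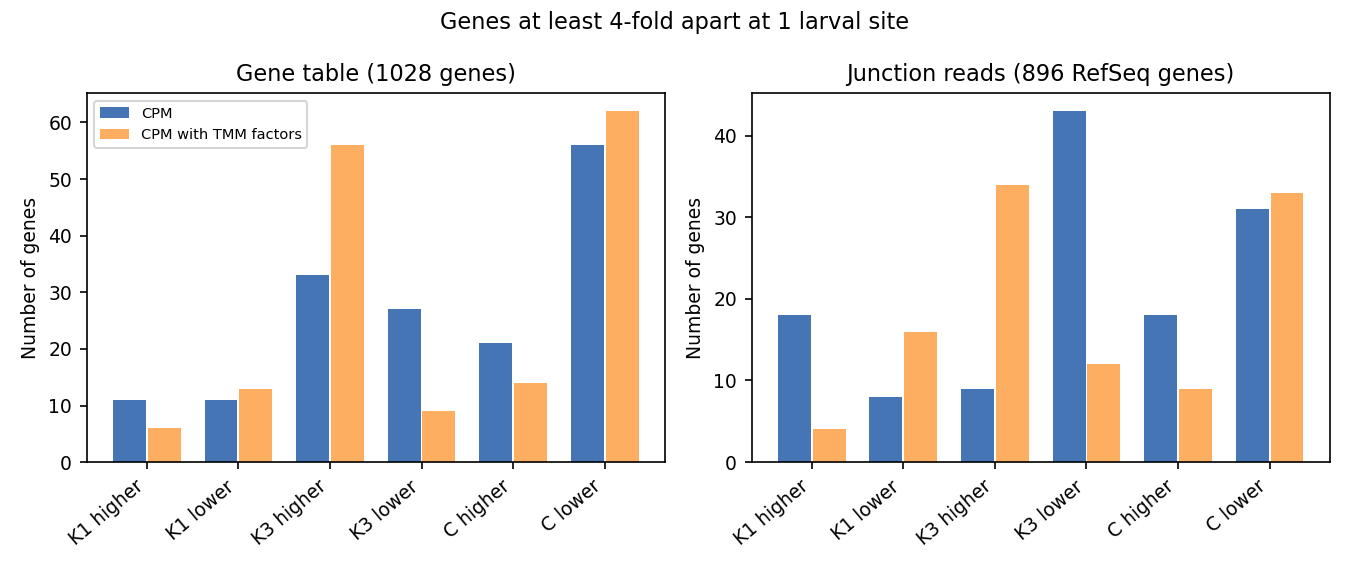
Bars give the number of genes at least 4-fold above or below both other larval pools at each site, by CPM and by CPM with TMM factors, from the gene tables (left) and from junction reads per RefSeq gene (right). The class lower in C larvae holds 56 and 62 genes on the left and 31 and 33 on the right, while the larger K3 class on the right is the lower one by CPM and the higher one with TMM factors.

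The 2 genes with the largest fold in each class had few or no counts in adults. In K1 larvae AAEL015140 was at 6012 CPM, against 150 in K3 and 468 in C larvae, a fold of 12.9 over C (11.8 and 13.6 in the forward and reverse columns). AAEL009556 was at 375, 17.1 and 27.5 CPM in K1, K3 and C larvae. Both had no count in any adult pool. Among genes lower in K1 larvae, AAEL002017 and AAEL013829 had 1 count each there, with 22.6 and 140 CPM in K3 and 99.5 and 8.08 CPM in C larvae. Their ratios to the nearer pool, as counted, were 311 (95% counting interval 55.3 to 12312) and 111 (19.6 to 4417), which a floor of 3 counts lowered to 103.5 and 37.0. With a floor of 30 counts AAEL013829 was no longer 4-fold lower (log2 1.89).

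In K3 larvae AAEL011458 was at 272 CPM, with 1.53 CPM in K1 larvae and no count in C larvae, a fold of 178 over K1. AAEL004759 was at 239 CPM, against 2.47 and 1.47 CPM, a fold of 96.9 that was 106 and 91.9 in the strand columns. AAEL027940 was lower in K3 larvae, with 12 counts (0.996 CPM) against 31.3 CPM in K1 and 52.1 CPM in C larvae. AAEL012013 had 3 counts in K3 larvae and 9.09 and 67.1 CPM in K1 and C, a ratio of 36.5 to K1 (95% counting interval 12.2 to 179) that was 22.1 with TMM factors and under 4-fold with a floor of 30 counts (log2 1.87). AAEL011458 had 6 and 9 counts in the K1 and C adults, and the other 3 had none in any adult pool.

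In C larvae AAEL012164 was at 191 CPM, with 2.47 and 3.82 CPM in K1 and K3, a fold of 50.1 over K3. AAEL007305 was at 68.6 CPM, with no count in K1 and 2.57 CPM in K3 larvae. In the other direction AAEL004751 had 1 count in C larvae, the deepest library, and 1513 and 907 counts in K1 and K3 (110 and 75.3 CPM). AAEL004745 had 6 counts in C and 1804 and 5301 counts in K1 and K3 larvae, 401-fold below K1. Of the 56 genes lower in C larvae, 13 had at most 3 counts there.

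Genes that were apart between larval sites were often very low in adults. The adult pools were shallower, with 10450701, 3271618 and 4360094 gene counts in K1, K3 and C, so low adult values rest on few counts. Of the 126 genes, 59 (46.8%) were under 1 CPM in every adult pool, against 119 (11.6%) of all 1028 genes. The share was 71.4% for the 21 genes higher in C larvae and 33.3% for the 27 lower in K3 larvae, with the other classes between. Of the 42 calls with at least 10 CPM in an adult pool, the adults of the same site were the extreme pool in the same direction in 12 and in the opposite direction in 15. A gene apart at more than 1 site counts once for each, so these calls are not all separate genes. Over all 831 genes with such adult levels, the share in the same direction was 26.4% to 44.3% for the 6 combinations of site and direction. For the 56 genes lower in C larvae these numbers were 5 and 9 of 20, and over the 831 genes C adults were the lowest pool in 31.0% and the highest in 29.4%.

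By junction reads, 106 of 896 RefSeq genes with at least 50 CPM in a larval pool (11.8%) were apart at a site. K1 larvae had 18 genes higher (2.01%) and 8 lower (0.893%), K3 larvae 9 higher (1.00%) and 43 lower (4.80%), and C larvae 18 higher (2.01%) and 31 lower (3.46%). With TMM factors these became 4 and 16 in K1, 34 and 12 in K3, and 9 and 33 in C larvae, so the split changed sides in K1 and K3 and not in C. No junction read was found in any adult pool for 33 of the 106 genes (31.1%), against 56 of the 896 (6.25%). In the K1, K3 and C adults 50 CPM stood for 185, 51 and 81 reads, against 233, 220 and 317 in the larvae. An absence in adults is therefore weaker than one in larvae. The 5 genes of each class with the largest folds, described next, are protein-coding in the RefSeq table.

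In K1 larvae LOC5579510 (described above) was 11.1-fold above C larvae. LOC5577142 on chromosome 2 was at 1603, 163 and 211 CPM in K1, K3 and C larvae, with no adult junction read. LOC5580223 on chromosome 3 was at 62.9, 5.67 and 0 CPM, 11.1-fold above K3 larvae, and also had none in adults. LOC5577594 and LOC5575522, both on chromosome 2, were at 69.1 and 60.1 CPM in K1 larvae and under 8 CPM in the other 2 pools. The TMM scaling left LOC5577142 4.99-fold and LOC5580223 5.63-fold above the nearer pool.

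Among genes lower in K1 larvae, LOC5576677 on chromosome 1 had the highest reads elsewhere, at 34.3, 770 and 837 CPM in K1, K3 and C larvae, 22.4-fold below K3. LOC5563841 on chromosome 2 was at 7.94, 129 and 113 CPM. LOC5576658 on chromosome 3 had 1 read in K1 larvae, against 87.6 and 27.1 CPM in K3 and C, although the K1 adults had 554 reads. LOC5566864 on chromosome 3 had 0, 80 and 408 reads in the larval pools. With a floor of 3 reads in the K1 library it was 28.2-fold lower in K1 than in K3. Reads in K1 larvae were not independent (strand variance ratio 25.4), so this fold is not a lower bound. With multiply mapped reads added LOC5566864 was no longer 4-fold lower (log2 1.73). LOC5578716 on chromosome 2 had 0, 1362 and 52 reads and no adult read.

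LOC5578716 was also the gene with the largest fold in K3 larvae, at 309 CPM, 37.7-fold above C. LOC23687713 on chromosome 3 was at 15.9, 324 and 0 CPM in K1, K3 and C larvae, while the adults had 207, 168 and 700 CPM, so the pool without a larval read was the highest among adults. LOC110677266 and LOC5565393 on chromosome 2 were at 156 and 240 CPM in K3 larvae, with 1 and 0 reads in C larvae and none in adults. LOC5567232 on chromosome 3 was at 0.429, 55.4 and 3.63 CPM. With TMM these 5 folds were larger, from 24.4 to 68.3.

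LOC5580169 on chromosome 1, whose annotated introns span 32714 bp, had 162, 1 and 586 reads in K1, K3 and C larvae, a ratio of 153 to K1 as counted (95% counting interval 27.1 to 6089). LOC5571602 on chromosome 2 (90546 bp) had 101, 2 and 379 reads, a ratio of 47.8 (12.9 to 400). LOC5567534 on chromosome 3 (113442 bp) had 141, 5 and 327 reads. LOC5566459 on chromosome 1 (9040 bp) had 55, 2 and 323 reads, a ratio of 26.0 (6.87 to 220). LOC5564486 on chromosome 1 (5564 bp) differed from these in level, with 574, 21.6 and 3580 CPM and 1 read in all adult pools together, and it was also 6.23-fold higher in C than in K1 larvae. With a floor of 3 reads and TMM factors the folds of K3 larvae below the nearer pool were 25.9, 16.2, 13.5, 8.80 and 13.5 in the order named, and with the floor alone 51.1, 31.8, 26.7, 17.3 and 26.6.

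C larvae were highest in LOC5570918 on chromosome 2, at 330 CPM against 9.88 and 4.77 CPM in K1 and K3, with no adult read. LOC110681558 on chromosome 1 was at 115 CPM against 7.30 and 0.908 CPM. LOC5573545 on chromosome 2 and LOC5565588 on chromosome 1 had no read in K1 larvae, 10 and 12 reads in K3 and 359 and 329 reads in C larvae. LOC5577364 on chromosome 3 was at 4.51, 4.09 and 53.5 CPM. The folds over the nearer pool were 33.4, 15.7, 24.9, 19.1 and 11.9 in the order named, and 36.4, 17.1, 13.8, 10.5 and 7.22 with TMM factors.

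Of the 31 genes lower in C larvae, 8 had no read there, and the 3 of these with the largest folds were LOC23687920, LOC5565790 and LOC110675722 on chromosome 2. LOC23687920 had 493 and 1770 reads in K1 and K3 larvae and was 224-fold lower in C than in K1 larvae with a floor of 3 reads, yet it had 371, 24 and 90 reads in the K1, K3 and C adults. With the same floor LOC5565790 was 86.4-fold and LOC110675722 56.7-fold lower than in the nearer pool. LOC5574899 on chromosome 2 was at 555, 720 and 3.79 CPM, and LOC5565270 on chromosome 1 at 50.9, 58.6 and 0.946 CPM. The floor of 3 reads stood in for 0 in the folds of LOC23687920, LOC5565790 and LOC110675722. Reads in C larvae were not independent (strand variance ratio 14.2), so these folds are not lower bounds.

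Some of these genes were neighbours. Counting called genes of 1 class separated by no more than 2 protein-coding genes, 16 of the 127 calls lay in 6 runs. No such count over all 896 tested genes is given, so 16 is not called many or few. The longest run held LOC5571813, LOC23687920, LOC23687817 and LOC110675722 on chromosome 2, all lower in C larvae. LOC5571813 was at 86.7, 143 and 4.26 CPM in K1, K3 and C larvae and LOC23687817 at 125, 344 and 3.31 CPM, so K3 was the highest pool for all 4. LOC5567235 and LOC5567234 on chromosome 3 were both lower in C larvae, the former at 1354, 1136 and 118 CPM. Nearby on chromosome 3, LOC5567232 and LOC110679443 were both higher in K3 larvae, the latter at 23.8, 206 and 0 CPM. LOC5576719, LOC5576718 and LOC5576717 on chromosome 1 were all lower in K3 larvae, with 456, 67.2 and 610 CPM for LOC5576718. Near-identical copies of a gene can share reads, and multiply mapped reads were not counted, so values within such runs are uncertain.

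The classes differed in how far their introns extend. The 31 genes lower in C larvae had a median intron span of 477 bp, and 19 of them spanned under 1 kb, against 12318 bp and 196 (21.9%) for the 896 genes. The 9 genes higher in K3 larvae had a median of 358 bp, but 6 of them (66.7%) were also among the 31 (19.4%), and TMM factors made this class 34 genes. By contrast the 43 genes lower in K3 larvae had a median of 12537 bp and the 18 higher in C larvae 18281 bp. Over all 896 genes, the median log2 ratio of K3 to K1 larvae went from -0.23 for 196 genes under 1 kb to -0.44 (1 to 10 kb, 187 genes), -0.84 (10 to 50 kb, 394 genes) and -1.06 (50 kb or more, 119 genes). By CPM, K3 was the lowest larval pool for 47.4% of the shortest and 76.5% of the longest class. Both shares, and the level of the K3 to K1 medians, depend on the scaling.

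The ratio of C to K1 larvae stayed between -0.16 and 0.01 over the same classes. Another scaling shifts all 4 values of a pair of pools together and leaves their differences as they are. Part of the contrast went with the level of the genes. Among genes under 200 CPM in their highest pool, the K3 to K1 medians were -0.56, -0.91, -0.96 and -1.06 from the shortest to the longest class. In adults the same genes, where they reached 50 CPM, gave 0.31, 0.25, 0.09 and -0.17 for K3 against K1. K3 larvae also differed from the others in strand variance, at 2.98 against 25.4 and 14.2, and its part in this pattern was not tested.

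**Figure D4:**
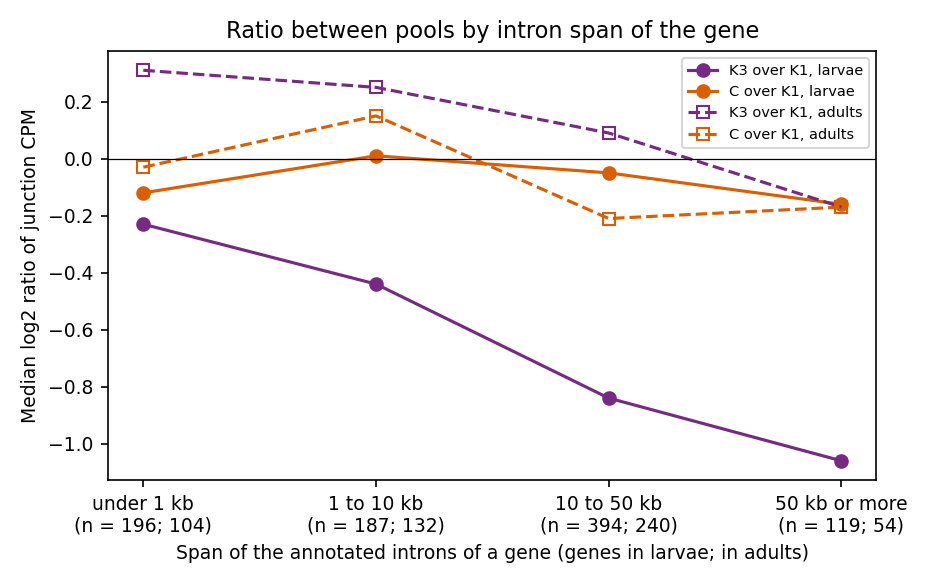
Median log2 ratio of junction CPM between pools (vertical) for RefSeq genes grouped by the span of their annotated introns (horizontal), in larvae (filled, solid) and adults (open, dashed), with the number of genes in larvae and in adults under each class. The K3 to K1 ratio of larvae falls from -0.23 to -1.06 with increasing span, and the C to K1 ratio of larvae stays near 0.

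Junction use differed little between the larval pools in most of the junction groups that could be compared. Of 13000 annotated junctions read in a larval pool, 4020 (30.9%) were read in all 3, and these held 98.7% of the larval reads on annotated junctions. K3 larvae alone accounted for 4228 annotated junctions, against 392 for K1 and 1024 for C larvae. Junctions that share an intron start or end were grouped, and the use of a junction was its share of the group's unique reads. Of 523 groups with at least 50 reads in each larval pool, 401 (76.7%) differed by under 10 percentage points between any 2 pools, and the median of the largest difference was 1.20 points. A difference of 30 points or more was found in 40 groups (7.65%), of which 35 lay in a total of 28 RefSeq genes and 5 in no single gene.

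For all 40 groups the exact 95% intervals of the highest and lowest larval pool did not overlap, but these intervals take reads as independent. The groups were chosen for a large difference in the same reads, so the separation is no added support. After dividing the reads by each pool's strand variance ratio, the intervals remained apart for 15 of the 40. This describes counting precision in the chosen groups and gives no spread between pools. The positions that follow are those of the deposited junction tables, for which the sources used here name no genome build. The largest difference was in LOC5574604 on chromosome 1, where the intron from 177032825 to 177036023 took 0 of 63, 30 of 74 and 107 of 108 reads in K1, K3 and C larvae (0%, 40.5% and 99.1%). In the adults it took 20 of 20, 0 of 28 and 13 of 13. In this group, of junctions with the same intron start, the low pool was thus K1 in larvae and K3 in adults. Divided reads left 0 of 2 and 8 of 8 for K1 and C, with overlapping intervals, and the same held for LOC5566176, LOC5571937 and LOC5577779. Among the 3 junctions that share its end, the same intron took 0 of 331, 30 of 213 and 107 of 324 larval reads (0%, 14.1% and 33.0%). In that group it took 20 of 59 reads in K1 adults and 13 of 73 in C adults, and K3 adults had no read.

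In 4 of the 8 groups with the largest differences the intervals of the divided reads stayed apart between the highest and lowest pool. In LOC5567235 on chromosome 3, a gene also lower in C larvae, an unannotated intron from 332425935 to 332426180 took 31 of 267 reads (11.6%) in K1 larvae, 1321 of 1443 (91.5%) in K3 and 180 of 202 (89.1%) in C, with no adult read. In another group of this gene K3 was the low pool. There the unannotated intron from 332425935 to 332426027 took 2226 of 2229, 2811 of 4416 (63.65%) and 574 of 574 reads in K1, K3 and C larvae. In LOC5575931 on chromosome 2 the annotated intron from 203864821 to 203872763 took 239 of 283 (84.5%), 14 of 56 (25.0%) and 153 of 174 (87.9%), so K3 was the low pool. After division the K3 interval (9.15% to 51.2%) was apart from that of C and overlapped that of K1 (48.2% to 97.7%). The other 2 lay on chromosome 3 in no single gene. The intron from 351280302 to 351306723 took 134 of 186 reads (72.0%) in K1 larvae and 4 of 848 and 0 of 571 in K3 and C. That from 84659950 to 84660861 took 144 of 172 (83.7%), 61 of 233 (26.2%) and 126 of 142 (88.7%), while all 55 reads in K3 adults used it.

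**Figure D5:**
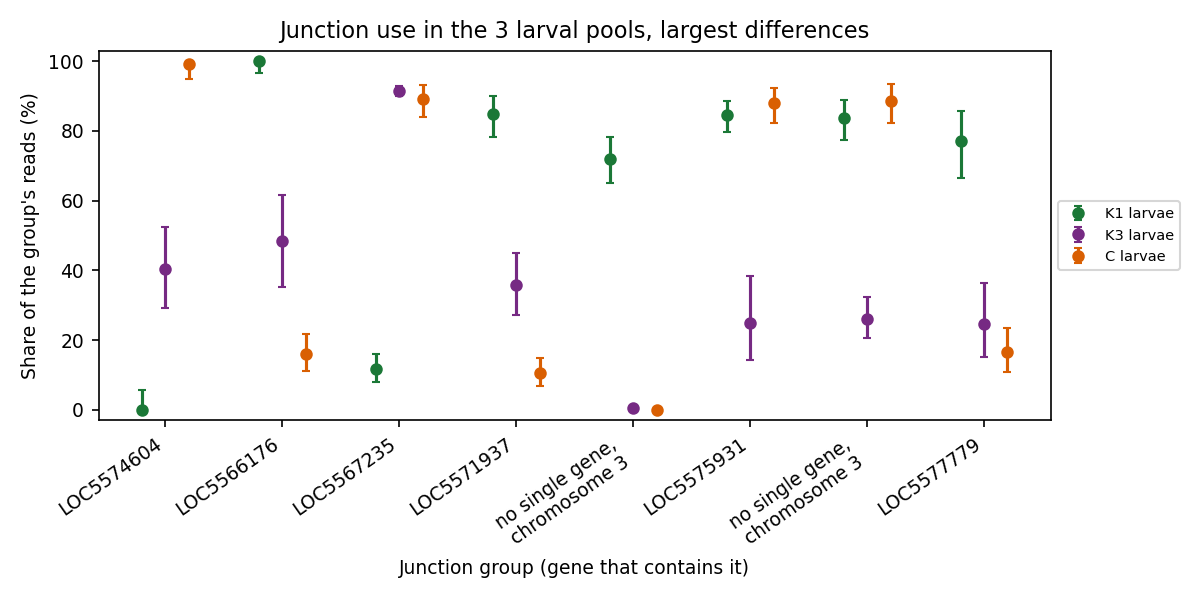
Share of a junction group's unique reads taken by the junction that differs most (vertical, percent) in the 3 larval pools, for the 8 groups with the largest differences, with exact 95% binomial intervals for counting error only. In the groups shown, K1 is the outlying pool in LOC5567235 at 11.6% and K3 in LOC5575931 at 25.0%. The 3 pools are spread from 0% to 99.1% in the group shown for LOC5574604. Other groups of LOC5567235 and LOC5574604 are not drawn.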

How the data were processed

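Whole-body larval and adult pools were sequenced as paired ends of 150 bases, per the labels' protocols. The submitters' processing notes list FastQC, cutadapt, fastp, STAR and edgeR. The sources used here name no version, genome build or annotation. The deposited gene tables hold counts per gene, not normalized, in 3 columns (both strands, forward, reverse). The 4 summary rows, 69.3% to 74.4% of larval reads, were left out. Unmapped reads alone were 55.4% to 58.7% of larval reads. The deposited junction tables hold counts of reads per intron, and their overhang column was not used. No source says whether the gene tables count single reads or pairs, and they are called reads here. Reads at several places are counted for no gene, and without strand overlapping genes cannot be told apart.

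CPM used the column for both strands. Of 19804 identifiers, 0 matched the RefSeq table of assembly AaegL5.0, so the lists by product name and the check of the larval label against markers were not run. Of 15077 annotated introns on chromosomes 1 to 3, 99.97% lay in a RefSeq gene, against 55.97% after a shift of 100000 bp. The table served for symbols, biotype and gene order. Intron spans came from the deposited junctions.

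Folds used a floor of 3 counts per library. No test was run, since each site had 1 larval pool. The rules were tested on simulated counts with known folds and counting error only. That simulation does not cover dependent reads or spread between pools. Named genes are, by identifier, the 10 highest larval means and the 2 largest folds per site and direction. By RefSeq symbol they are the 20 highest means (11 of them only by their range), the 5 largest folds per class and the 5 steadiest of the top 100. For junctions they are the 8 largest differences. The neighbour runs, the 4 genes without adult reads, the intron spans and the divided reads were chosen after seeing the values. Members, lists and rules were chosen with earlier results of these data known. Alternatives were TMM and median-of-ratios scaling, other minimum levels, folds and floors, each strand column, other read classes and each pool left out. Intervals cover counting error only, since reads copied from a single fragment are not independent. R 4.3.3, edgeR 4.0.16 (TMM factors only), Python 3.11.15 and scipy 1.17.1 were used.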

Additional observations from a re-analysis of the deposited data

How the results depend on the processing

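No paired analysis was possible because no result comes from a test and each site had 1 larval pool. In the order K1 higher, K1 lower, K3 higher, K3 lower, C higher and C lower, genes apart by the gene tables numbered 11, 11, 33, 27, 21 and 56. TMM factors gave 6, 13, 56, 9, 14 and 62, and median-of-ratios factors 6, 12, 53, 9, 14 and 60. A minimum of 10 CPM gave 65, 61, 53, 98, 67 and 97, no minimum 427, 586, 297, 271, 569 and 326, and 8-fold 2, 8, 20, 8, 10 and 44. A floor of 30 counts gave 11, 8, 33, 26, 21 and 51, the forward column 13, 9, 36, 25, 19 and 55, and the reverse column 13, 17, 31, 31, 22 and 50. By junction reads, in the same order, TMM gave 4, 16, 34, 12, 9 and 33, a minimum of 10 CPM 203, 142, 25, 163, 142 and 98, and 8-fold 4, 5, 7, 14, 6 and 23, against 18, 8, 9, 43, 18 and 31. Adding multiply mapped reads gave 16, 6, 12, 43, 14 and 30. With 1 of the other pools left out, a site's pool was compared with the 1 that remained. The gene tables then gave 58 to 58, 31 to 44, 44 to 71, 54 to 58, 31 to 54 and 58 to 71. Junction reads gave 48 to 104, 16 to 28, 16 to 33, 77 to 104, 28 to 77 and 33 to 48. Genes at 10 CPM in all larval pools numbered 1477, and 3721 at 1 CPM, 1525 with TMM, 1407 with the forward column and 1557 to 1785 with a pool left out. The share of the 10 top genes, 14.9%, was 14.5% with the forward column and 14.6% to 15.6% with a pool left out. The 40 junction groups became 25 with at least 100 reads, 28 with annotated junctions only, 10 at 50 points, and 15 to 42 with a pool left out, 15 being without K1 larvae. Of 120 checks of the named genes, 117 stayed at 4-fold or more and 0 reversed. These genes were picked for the largest folds in the same counts. That outcome was therefore largely fixed in advance and is no added support for the calls. The exceptions were AAEL013829 and AAEL012013 with a floor of 30 counts (log2 1.89 and 1.87) and LOC5566864 with multiply mapped reads (1.73). The causes were not tested. The reverse column and the demand for 4-fold in both strand columns were added after seeing the data.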
